A study of Mus musculus with 2 samples.

Results

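Annotated microRNA loci with reads were 44 genes of the count table of Ago1 knockout mouse embryonic stem (ES) cells. They were chosen as genes that GENCODE release M21 types as miRNA, with a symbol that begins with Mir and a digit or with Mirlet, and with at least 10 reads over both libraries. The table held 1174 loci with such symbols, so 44, or 3.75%, passed, beside 36.6% of all 55421 genes at the same minimum. The remaining loci were 936 with 0 reads in both libraries (79.7%) and 194 with 1 to 9 reads in all. The choice used the read counts themselves, so the levels below are a description and carry no test.

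Polyadenylated RNA was sequenced from E14 ES cells of 129/Ola background, a blastocyst-derived line grown with serum and leukaemia inhibitory factor on gelatin. All libraries carried the AGO1 knockout, in 1 group with replicates KO2 and KO1, of 54408708 and 57048330 counts. The labels name neither clones nor separate cultures, so the spread between KO2 and KO1 may be technical, and no control library was used here. Ago1 itself, an Argonaute gene whose protein binds small RNAs, had 452 reads in KO2 and 1497 in KO1. The counts do not show where in the gene these lay. All 8 listed ES cell markers were detected, Pou5f1, Nanog and Sox2 among them, with mean levels from 132 to 1595 counts per 1000000 counts of the library (CPM). Of 8 feeder fibroblast markers the mean levels ran from 0 to 22.2 CPM with a median of 0.180. Of these, 4 had at least 10 reads, led by Thy1 with 1308 in KO2 and 1161 in KO1. Pdgfrb followed with 279 in KO2 and 248 in KO1, 2 markers had 1 to 9 reads, and Lum and Postn had 0.

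MicroRNA genes are transcribed by RNA polymerase II into long primary transcripts, which are capped and polyadenylated. Drosha and Dgcr8 cut a hairpin out of the primary transcript in the nucleus, Dicer1 trims the hairpin to a short duplex, and an Argonaute protein keeps 1 strand of it as the mature microRNA. Bases 2 to 8 of the mature strand, the seed, do most of the pairing with target messages. Many hairpins lie in introns of protein-coding genes and are made from the host transcript, whereas others sit in transcripts of their own. In mouse ES cells the miR-290 to miR-295 cluster is known as a major source of microRNAs. Reads of polyadenylated RNA over a hairpin can come from its primary or host transcript, or from a near-identical copy elsewhere, and the mature microRNA is too short to be counted in such libraries, so the values below are not mature microRNA levels. In bulk RNA, fewer cells that transcribe a locus and fewer transcripts per cell cannot be told apart.

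RefSeq (build GRCm38.p6) gave a mature sequence for 41 of the 44 loci, 65 sequences in all with 58 distinct seeds. Among these sequences 5 seeds were shared by 2 or more loci. Arms without a sequence there, such as the 3′ arm of Mir292, were not compared. The sequences of the miR-290 to miR-295 cluster are shown because that cluster held 7 of the loci, 6 of them among the 10 with the most reads per length. In each line the seed is in capitals. The first lines are the 3′ arms that had a sequence, of which miR-291a, miR-294 and miR-295 share 1 seed:
mmu-miR-291a-3p: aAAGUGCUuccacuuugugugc
mmu-miR-294-3p: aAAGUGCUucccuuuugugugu
mmu-miR-295-3p: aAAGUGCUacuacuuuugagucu
mmu-miR-290a-3p: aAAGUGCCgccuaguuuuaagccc
mmu-miR-291b-3p: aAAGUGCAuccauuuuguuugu
mmu-miR-293-3p: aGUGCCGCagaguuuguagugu
The next lines are the 5′ arms with a seed shared by Mir290a, Mir292 and Mir293:
mmu-miR-290a-5p: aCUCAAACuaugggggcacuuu
mmu-miR-292a-5p: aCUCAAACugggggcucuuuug
mmu-miR-293-5p: aCUCAAACugugugacauuuug

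The other shared seeds joined miR-291a-5p with miR-291b-5p, the pair of miR-692 loci, and the following arms of Mir363 and Mir92-2, neighbours on the X chromosome. The arms are shown because only these loci of the miR-106a to miR-363 cluster had at least 10 reads:
mmu-miR-363-3p: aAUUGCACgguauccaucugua
mmu-miR-92a-3p: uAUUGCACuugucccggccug

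The locus counted for each gene is the annotated hairpin with its flanks. That of Mir295, the cluster member with the most reads, runs over 69 bases at chr7:3220773-3220841 on the plus strand, with both mature arms in capitals here:
Mir295: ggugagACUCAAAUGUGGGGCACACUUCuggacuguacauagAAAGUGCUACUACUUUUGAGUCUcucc
That of Mir363 runs over 75 bases at chrX:52741693-52741767 on the minus strand, with its mature 3′ arm in capitals:
Mir363: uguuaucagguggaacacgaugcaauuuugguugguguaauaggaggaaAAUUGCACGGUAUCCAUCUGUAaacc

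The 44 loci together held 5398 reads in KO2 and 4759 in KO1. That was 0.00992% of the KO2 library (95% exact Clopper-Pearson interval 0.00966 to 0.0102) and 0.00834% of the KO1 library (0.00811 to 0.00858). Such intervals cover counting error only, since PCR copies are not independent molecules. The summed level was 91.3 ± 10.6 CPM (SD, n = 2). They took up 95.8% of the reads of all Mir and Mirlet loci in KO2 and 94.9% in KO1. The reads were very unevenly spread: the 6 loci with the most reads held 85.05% of the loci's total in KO2 and 84.2% in KO1. The median locus had 16.5 reads in KO2 and 12.5 in KO1. All 44 had reads in both libraries, and 7 were at 1 CPM or more in both.

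**Figure D1:**
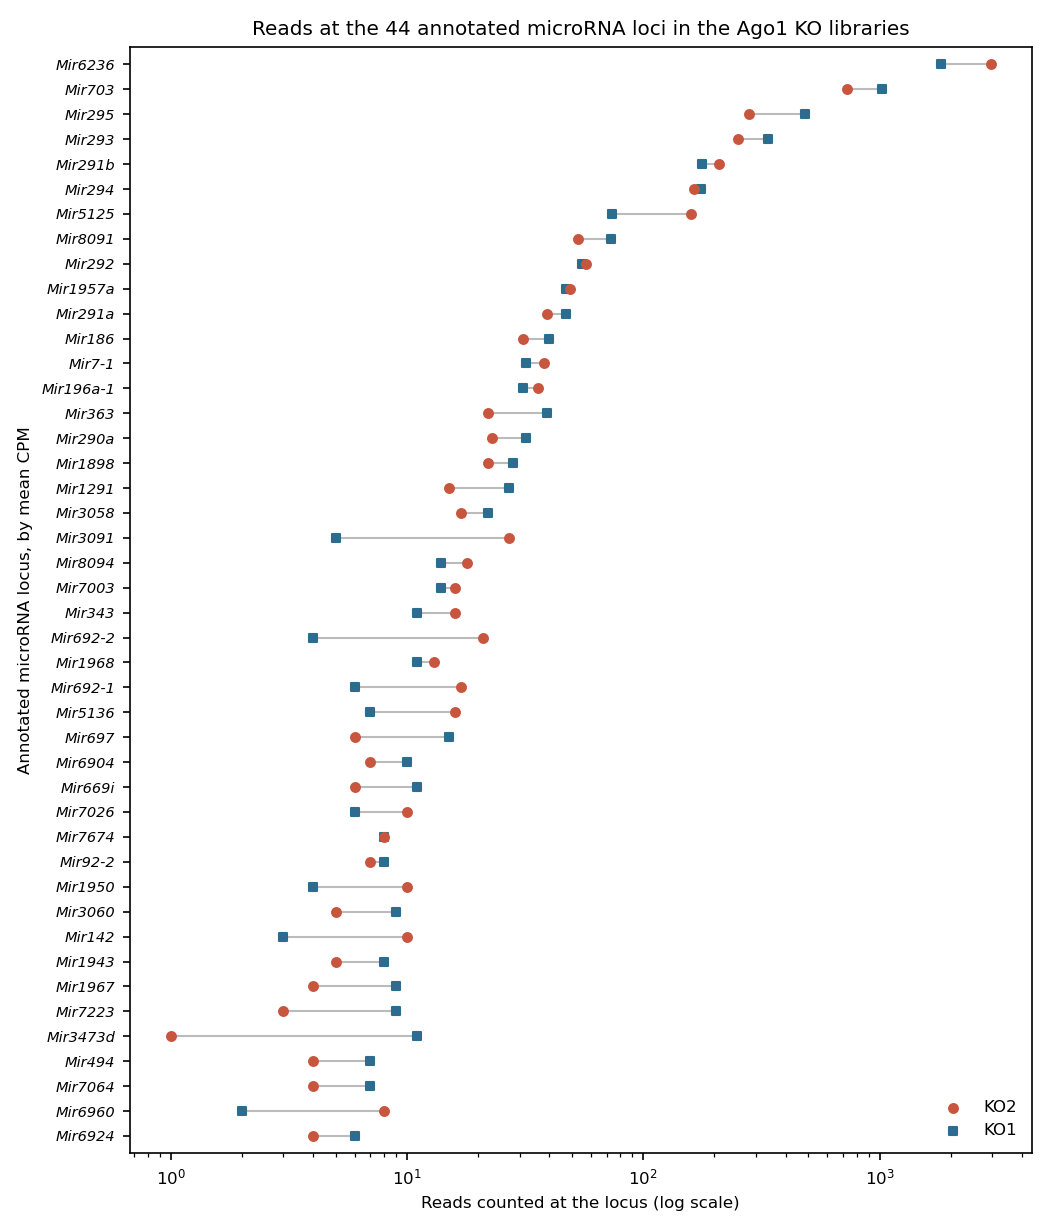
Reads counted at each of the 44 loci (log axis) in KO2 (circles) and KO1 (squares), ordered by mean CPM from the top. Mir6236 stands first with 2959 and 1810 reads and Mir703 second with 727 and 1026, and most loci lie under 50 reads in either library.

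The share of loci with reads differed with the annotation around each locus. The counting rule is not stated, and the reason for the difference was not tested. Of 129 loci that lay wholly inside an exon on the same strand, in a gene at 1 CPM or more, 129 had 0 reads and 0 passed the minimum, although those host genes had a median of 3169 reads over both libraries. Of 439 loci in an intron of such a gene, 284 had 0 reads (64.7%) and 20 passed (4.56%). Of 67 loci only partly under an exon, 50 had 0 reads (74.6%) and 6 passed (8.96%). A 0 at a locus inside an exon is therefore not read below as a low level. Some loci are annotated over another on the opposite strand. Mir142, which lies inside the longer Mir142b, had 10 reads in KO2 and 3 in KO1, whereas Mir142b had 0 in both. Mir292 had 57 reads in KO2 and 55 in KO1, and Mir290a had 23 and 32. Mir292b and Mir290b, opposite to them, had 0 in both. The strand setting of the counting is not stated, and from which strand such reads came was not tested.

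The 44 loci were spread over 16 chromosomes, with 9 on chromosome 7. In GENCODE M21, 21 lay in an intron of a gene on the same strand (47.7%), 6 overlapped such an exon in part (13.6%), 9 lay on the strand opposite to a gene only (20.5%) and 8 lay outside genes (18.2%). Among all 1174 loci the same shares were 47.4%, 22.9%, 9.45% and 20.3%. The intronic share was thus nearly that of all loci, and 6 of the 9 opposite-strand loci were the miR-290 to miR-295 members that face Nlrp12. Median locus length was 81.5 bases (61 to 139) against 81 for all Mir and Mirlet loci, and median GC content 50.3% against 50.9%.

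The miR-290 to miR-295 cluster had reads at every hairpin on its strand. Its 7 loci held 1024 reads in KO2 and 1305 in KO1, or 19.0% and 27.4% of the reads of the 44 loci. They lie at chr7:3218626-3220841, and no gene other than microRNAs is annotated on their strand there. Nlrp12, an innate immune receptor gene on the opposite strand, had 42 reads in KO2 and 37 in KO1 over the whole of its exons. The 3 loci whose 3′ arm carries the seed AAGUGCU, printed above, had 483 reads in KO2 and 705 in KO1.

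Reads along the cluster were fewest at its 5′ end. Mir290a, the first hairpin, had 23 reads in KO2 and 32 in KO1 (0.492 ± 0.101 CPM, SD, n = 2). Mir291a had 39 in KO2 and 47 in KO1 (0.771 ± 0.080 CPM). Mir292 had 57 in KO2 and 55 in KO1 (1.01 ± 0.0532 CPM). Each of these 3 had fewer reads than any of the 4 hairpins that follow, in both libraries. Mir291b, at chr7:3219482-3219560, had 210 reads in KO2 and 177 in KO1 (3.48 ± 0.515 CPM). Mir293, at chr7:3220343-3220422, had 251 in KO2 and 336 in KO1 (5.25 ± 0.933 CPM). Mir294, at chr7:3220641-3220724, had 164 in KO2 and 175 in KO1 (3.04 ± 0.0556 CPM). Mir294 broke the order, with fewer reads than Mir291b and Mir293 upstream of it in each library. Mir295, the last hairpin, had the most, 280 in KO2 and 483 in KO1 (6.81 ± 2.39 CPM). Per kb of locus the summed reads were 663 at Mir290a, 4899 at Mir291b, 7338 at Mir293, 4036 at Mir294 and 11058 at Mir295. Reads per kb of so short a locus also take in reads that only touch its ends, and neither the read length nor the overlap needed is stated in the labels.

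The miR-106a to miR-363 cluster on the X chromosome, a relative of the miR-17 to miR-92 cluster, had nearly all its reads toward its 3′ end. Mir363, the last hairpin, had 22 reads in KO2 and 39 in KO1 (0.545 ± 0.201 CPM). Mir92-2, next to it, had 7 in KO2 and 8 in KO1 (0.134 ± 0.0090 CPM). The 4 hairpins before them had 1 read in KO2 and 1 in KO1 in all, at Mir19b-2 and Mir18b, and Mir106a and Mir20b had 0. Of these, Mir106a overlaps in part an exon of the noncoding gene Kis2, which had 2 reads in KO2 and 3 in KO1. The 5 others lie outside genes.

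**Figure D2:**
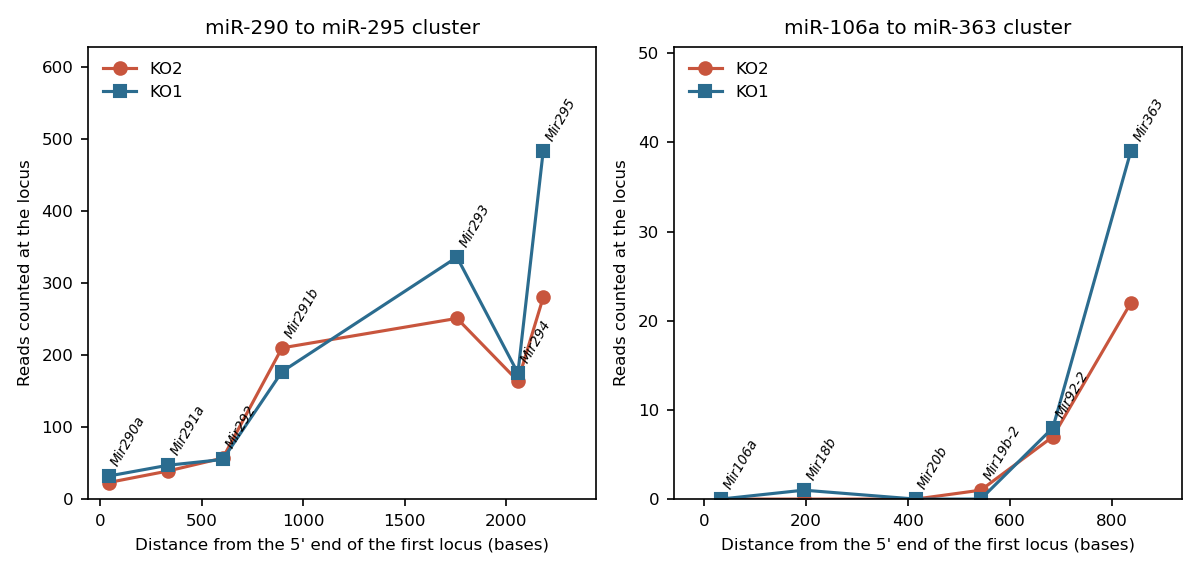
Reads counted at each hairpin of the miR-290 to miR-295 cluster (left) and the miR-106a to miR-363 cluster (right) in KO2 (circles) and KO1 (squares), against the distance of the hairpin's centre from the start of the first hairpin in bases. In both clusters and both libraries the last hairpin, Mir295 or Mir363, has the most reads.

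Several other listed microRNA clusters and families had no locus with 10 reads. All 6 loci of the miR-17 to miR-92 cluster had 0 reads, and all 6 lie inside exons of Mir17hg, whose own count was 2807 in KO2 and 4300 in KO1. In the miR-106b to miR-25 cluster, Mir25 and Mir93 lie inside annotated Mcm7 exons and had 0 reads, and Mir106b, in an intron of that replication helicase gene, had 1 in KO2 and 0 in KO1. Mcm7 had 30165 reads in KO2 and 27755 in KO1. Mir1306, inside an exon of Dgcr8, had 0 reads, beside 4271 in KO2 and 5139 in KO1 for Dgcr8. The 0 values inside exons are those for which no level can be read. Loci outside exons also had few reads. The miR-302 and miR-367 loci, on the strand opposite to Larp7, had 4 reads in KO2, all at Mir367, and 0 in KO1. The 2 loci of the miR-15 and miR-16 group in introns of the condensin gene Smc4, Mir15b and Mir16-2, had 0 reads, beside 16638 in KO2 and 23834 in KO1 for Smc4. At this depth a count of 0 allows up to 3 reads, or 0.0549 CPM in KO2 and 0.0528 CPM in KO1.

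The let-7 family, which differentiated cells use and whose hairpins Lin28a binds, had 10 of 11 loci at 0. Mirlet7g, in an intron of Wdr82, had 0 reads in KO2 and 1 in KO1. Mirlet7f-2 had 0 in both, although its host Huwe1, a ubiquitin ligase gene, had 52367 in KO2 and 57609 in KO1, and 6 of the 11 lie inside exons. All 3 miR-34 loci, known as p53 targets, had 0 reads. All 7 listed mirtrons, hairpins that splicing rather than Drosha frees, had 0 reads, and 3 of the 7 lie in introns as annotated, Mir877 in Abcf1 among them.

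The large cluster in an intron of Sfmbt2, a Polycomb-related gene, had 71 loci and 1 with at least 10 reads. Mir669i had 6 reads in KO2 and 11 in KO1, 64 loci had 0, and Sfmbt2 had 5359 reads in KO2 and 6479 in KO1. Hairpins of this cluster resemble each other closely, so their counts are uncertain where a read fits several of them. In the imprinted Dlk1-Dio3 region, 1 of 61 loci passed. It was Mir494, with 4 reads in KO2 and 7 in KO1. The region's 61 loci had 27 reads in KO2 and 31 in KO1 in all, and 19 loci had 1 to 9 reads over both libraries.

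The locus with the most reads was Mir6236, with 2959 in KO2 and 1810 in KO1 (43.0 ± 15.8 CPM, SD, n = 2). It made up 54.8% of the reads of the 44 loci in KO2 and 38.0% in KO1. It is 123 bases long, at chr9:110281287-110281409 on the plus strand, and outside genes, 18711 bases past the end of the nearest gene on its strand. No GENCODE transcript of another gene matched it over at least 80% of its length at 90% identity. Copies elsewhere in the genome, ribosomal DNA repeats included, were not searched. Its mature sequence and that of Mir703, the locus with the second most reads, are shown because these loci weigh most in any total:
mmu-miR-6236: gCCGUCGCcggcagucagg
mmu-miR-703: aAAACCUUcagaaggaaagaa

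Mir703 had 727 reads in KO2 and 1026 in KO1 (15.7 ± 3.36 CPM). It lies at chr5:98475556-98475664 on the minus strand, opposite to Cfap299, which had 0 reads in KO2 and 2 in KO1. Over 100% of its length it was 98.2% identical to a transcript of Eef1a1, a translation elongation factor gene, on the same strand of the message. Eef1a1 had 519707 reads in KO2 and 534253 in KO1, so Mir703 reads may have been counted from either source, which was not tested. The only other loci with such a match were Mir692-1 and Mir692-2, both near-identical to transcripts of the ferritin light chain gene Ftl1. Mir692-2 had 21 reads in KO2 and 4 in KO1, and Mir692-1 had 17 in KO2 and 6 in KO1. Ftl1 had 23624 in KO2 and 12381 in KO1. From which source the reads of both Mir692 loci came was not tested. The identity was 97.2% for Mir692-2 and 94.6% for Mir692-1, and both carry the same mature sequence:
mmu-miR-692: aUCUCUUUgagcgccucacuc
The 3 loci with a match held 14.2% of the reads of the 44 in KO2 and 21.8% in KO1.

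Host genes were well expressed where a locus lay within one. For the 27 loci with a gene on the same strand the hosts had a median of 193 CPM, and 26 of 27 (96.3%) were at 1 CPM or more, beside a median of 19.8 CPM and 76.3% for the hosts of the 798 Mir and Mirlet loci under 10 reads. Since the loci were chosen by their reads, no test goes with this difference. Per kb, the locus had a median of 11.7% of the reads of the host's exons (1.00 to 57.4%), and 0 loci exceeded their host. Reads that only touch the ends of so short a locus can also enter its value per kb. The 27 include Mir692-2 over Grik3, at 24.7%, and Mir1291 over Kansl2, at 8.65%. These loci also lie under Ftl2-ps and Snora34, and the source of their reads was not tested. Across the 27, Spearman's correlation of locus and host reads per kb was 0.516, a description only, because each locus and its host share libraries and primary transcripts.

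The intronic loci with the most reads sat in hosts of diverse function. Mir5125, in an intron of the splicing factor gene Srrm2 at chr17:23823291-23823369 (plus strand), had 159 reads in KO2 and 74 in KO1 (2.11 ± 1.14 CPM), which per kb was 36.7% of Srrm2. Its mature sequence is shown because it had the highest ratio among loci with at least 50 reads:
mmu-miR-5125: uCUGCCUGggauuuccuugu
Mir1957a, in the glucose transporter gene Slc2a1, had 49 reads in KO2 and 47 in KO1, or 12.3% of its host per kb. Mir186, in Zranb2, had 31 in KO2 and 40 in KO1, or 31.1% of its host. Mir7-1, in the RNA-binding protein gene Hnrnpk, had 38 in KO2 and 32 in KO1, or 2.80% of its host. All 3 had 95% intervals of the ratio that held 1-fold, which does not show that their levels were similar.

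Lower intronic loci followed without a break. Mir1898 in Zfr had 22 reads in KO2 and 28 in KO1, Mir3058 in Nudt4 had 17 and 22, and Mir3091 in the ribosomal protein gene Rps21 had 27 and 5. Mir3091 had the smallest share of its host, 1.00% per kb, and Mir3060 in Rnf215, with 5 reads in KO2 and 9 in KO1, the largest at 57.4%. Mir7003 in the cell cycle factor gene Mybl2 had 16 in KO2 and 14 in KO1, and Mir1968 in Grtp1 had 13 and 11. The remaining intronic loci were Mir697, Mir7026, Mir1950, Mir142, Mir1943, Mir1967, Mir3473d, Mir7064, Mir6960 and Mir6924, each with 10 to 21 reads over both libraries, besides Mir669i. Of these, Mir142, known as a blood cell microRNA, had 10 reads in KO2 and 3 in KO1, and its host Mir142hg had 45 in KO2 and 64 in KO1.

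The 6 loci partly under an exon had between 16 and 42 reads over both libraries. Mir1291, which is 78.6% under the small nucleolar RNA gene Snora34 within Kansl2, had 15 reads in KO2 and 27 in KO1, beside 19 and 21 for Snora34. Mir8094 in the RNA helicase gene Ddx39b had 18 in KO2 and 14 in KO1, and Mir343 in the helicase gene Ercc2 had 16 and 11. Mir6904 in Parp1 had 7 and 10, and Mir7674 in Nup214 had 8 and 8. Mir692-2, given above, is 83.5% under the gene Ftl2-ps within Grik3.

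**Figure D3:**
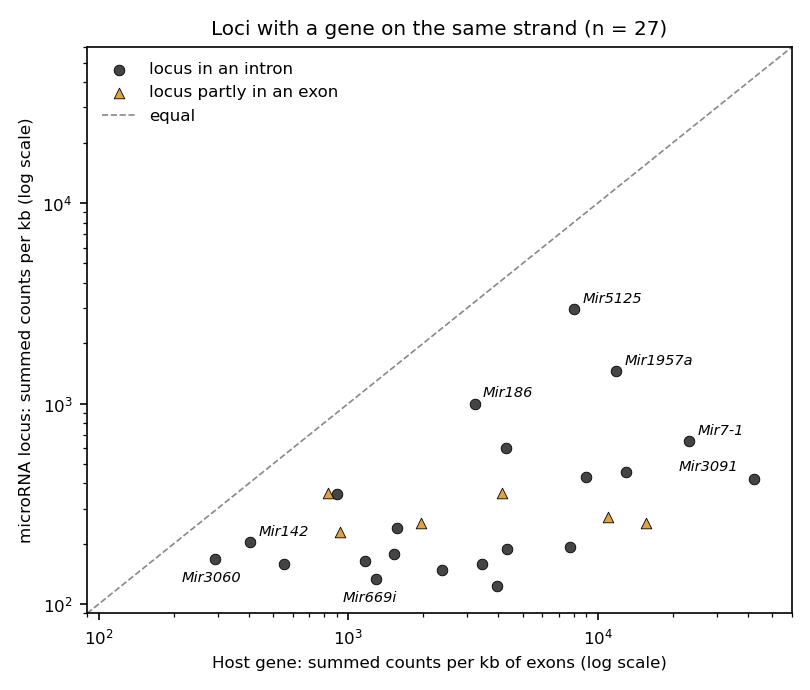
Summed reads per kb of the microRNA locus against summed reads per kb of the host's exons (both axes log) for the 27 loci with a gene on the same strand. Circles lie in introns, triangles partly in exons, and all 27 lie under the dashed line of equal values. For Mir1291 and Mir692-2 the exon belongs to Snora34 and Ftl2-ps, whereas the plotted hosts are Kansl2 and Grik3.

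Of the loci outside genes, Mir8091 had 53 reads in KO2 and 73 in KO1 and lies 2115 bases past the end of Gm340. Mir196a-1, in the Hoxb cluster, had 36 in KO2 and 31 in KO1 and lies 296 bases past the end of the noncoding gene Gm53, which had 304 in KO2 and 251 in KO1. Both were similar between the libraries. The remaining loci opposite to a gene were Mir5136, with 16 reads in KO2 and 7 in KO1, and Mir7223, with 3 and 9. At the threshold, Mir6924 and Mir6960 had 10 reads over both libraries and Mir494 and Mir7064 had 11. Just under it, with 9 reads each, stood Mir1192, Mir433, Mir6955, Mir7013, Mir7030 and Mir7679.

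The duplicates were compared at the 17 loci with at least 50 reads, as the ratio of KO2 to KO1 after scaling for library size, with 95% intervals from the exact conditional binomial distribution. A locus was called when the whole interval lay beyond 2-fold. This sets 1 library against another, without replicates, and gives no p-value. By that rule 0 of 17 loci were higher in KO2 and 0 lower, where 0.98% of 15619 genes were higher and 0.0768% lower, so 17 loci are too few to set 0 apart from those shares. At 1.5-fold, 2 of 17 were higher and 0 lower, beside 6.4% and 0.205% of all genes tested. The 2 were Mir5125 and Mir6236.

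Mir5125 had a log2 ratio of 1.15 (95% interval 0.75 to 1.58), and Mir6236 one of 0.77 (0.68 to 0.85). Mir291b was at 0.30 (0.01 to 0.60). On the other side, Mir295 was at -0.73 (-0.95 to -0.51), Mir703 at -0.44 (-0.58 to -0.30) and Mir293 at -0.36 (-0.61 to -0.12). The intervals of the other 11 loci held 0. How many of all genes have an interval that leaves out 0 was not counted, so these loci are not set apart from other genes. Within the miR-290 to miR-295 cluster Mir291b and Mir295 lay on opposite sides of 0, but the interval of Mir291b only just left out 0. The median log2 ratio of all 44 was -0.17, beside 0.01 for 20310 genes with at least 10 reads, and 20 of the 44 were higher and 24 lower in KO2 by their point values.

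GC content moved with the ratio. Across 15603 genes Spearman's correlation of the log2 ratio with transcript GC content was 0.811, across the 17 loci it was 0.642 and across all 44 it was 0.317, as descriptions over genes that share both libraries. Mir703, with 31.2% GC, came to a log2 ratio of 0.06 after correction for GC content. The corrected values are given without intervals, so no direction is read from that of Mir703. Mir6236, with 56.1% GC, came to 0.30 and Mir5125, with 55.7%, to 0.73. Mir293, with 41.2%, came to -0.04, and Mir295, with 46.4%, to -0.58. Mir291b, with 51.9%, came to 0.17, and no direction is read from that value either.

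**Figure D4:**
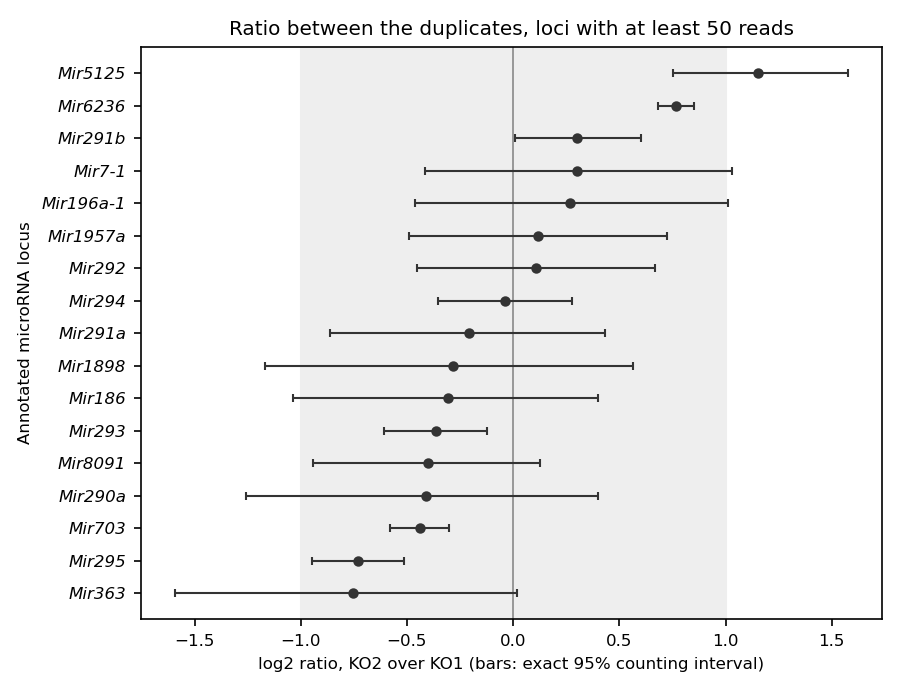
Log2 ratio of KO2 to KO1 for the 17 loci with at least 50 reads, with exact 95% counting intervals as bars and the range within 2-fold shaded. No interval lies wholly outside the shaded range, and 6 of the 17 do not cross 0. The share of all genes with an interval that does not cross 0 was not counted.

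Among the 27 loci under 50 reads, the counts allowed only wide intervals, and 4 of them did not hold 0. The share of all genes with such an interval was not counted, so these 4 are not set apart from other genes. Mir3091 was at 2.38 (1.09 to 4.22), Mir692-2 at 2.31 (0.88 to 4.45) and Mir692-1 at 1.49 (0.15 to 3.19), all higher in KO2. Mir3473d, with 1 read in KO2 and 11 in KO1, was at -2.88 (-8.83 to -0.62). After correction for GC content the values came to 1.17 for Mir3091, 1.21 for Mir692-2, 0.52 for Mir692-1 and -2.93 for Mir3473d. For the 27 loci with a host, the interval of the locus held the host's own log2 ratio in 20. Of the 7 exceptions, Mir5125 stood at 1.15 with Srrm2 at 0.16, and Mir3091 at 2.38 with Rps21 at 0.47. The others were Mir1957a, Mir692-2, Mir3473d, Mir1950 and Mir142.

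The listed genes of the microRNA pathway, Ago1 among them, had reads in both libraries. All 25 listed pathway genes had at least 10 reads, with mean levels, not scaled by gene length, from 0.580 CPM for Ago4 to 1406 CPM for Hnrnpa1, which binds some primary transcripts. Drosha was at 376 ± 7.17 CPM (SD, n = 2), Dgcr8 at 84.3 ± 8.69 CPM and Dicer1 at 185 ± 9.07 CPM. By the 2-fold rule 0 of 25 were higher and 1 lower in KO2, which was Ago1 itself, beside 0.98% higher and 0.0768% lower among the 15619 genes tested.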

How the data were processed

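The authors deposited 1 table of raw counts per Ensembl gene, 1 column per library. GRCm38 is the build named, per the submitters' processing notes. No source used here states the aligner, the counter, its strand setting or its annotation release. Biotypes, positions and exons came from GENCODE M21. The members and lists were chosen with earlier results of these data known. Named loci were the 10 highest, those of fixed locus groups, those called, and those at the threshold. The other loci were named after their values were seen.

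Counts were scaled to CPM with trimmed mean of M values (TMM) factors in edgeR 4.0.16 (R 4.3.3). With 1 group no test between groups was possible. Ratios of KO2 over KO1 used a prior count of 0.5, exact conditional binomial 95% intervals and a minimum of 50 reads, and the rule was tested on simulated data. A locus's host was the coding or long noncoding gene on its strand with the most reads. Copies were searched with blastn 2.17.0 (at least 80% of the locus at 90% identity). Alternatives included DESeq2 1.42.0 size factors and a loess GC correction (span 0.3). Other steps ran in scipy 1.17.1 and pandas 2.3.3 under python 3.11.15, with figures from matplotlib 3.10.9.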

Additional observations from a re-analysis of the deposited data

How the results depend on the processing

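No paired analysis was possible because both libraries belong to 1 group. Alternatives on copies and on Mir6236 were chosen after seeing the data. The number of loci, 44, was 73 at 5 reads, 28 at 20 and 17 at 50, and each library alone at 5 reads gave 44 to 48. The summed level, 91.3 CPM, was 75.2 without the 3 loci with a copy and 48.3 without Mir6236, and each library alone gave 83.8 to 98.8. The intronic share, 47.7%, was 29.4% at 50 reads, and each library alone gave 50 to 52.3%. The locus share of the host, 11.7%, was 14.1% at 50 reads, and each library alone gave 8.05 to 11.2%. The count of 0 called loci was 2 at 1.5-fold, and 1 (Mir3091) both with a minimum of 10 reads and with no minimum. The median log2 ratio of -0.17 ran from -0.22 to -0.04 over its alternatives. The value of -0.22 came with DESeq2 size factors. These were 1 for both libraries, so that alternative left the counts unscaled between KO2 and KO1. With 44 loci at a median of 28.5 reads, depth limits most ratios.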

Other observations

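Genes typed as miRNA under other symbols were 1033, of which 20 (1.94%) had at least 10 reads, and together they had 1436 reads in KO2 and 944 in KO1. The highest was Gm26384, with 292 in KO2 and 260 in KO1. Gm23935 followed with 429 in KO2 and 83 in KO1. Snord43, a small nucleolar RNA symbol that this release types as miRNA, had 186 in KO2 and 208 in KO1 and lies in an intron of the ribosomal protein gene Rpl3. Gm26298, outside genes, had 91 in KO2 and 107 in KO1, Gm24270, in an intron of Peak1, had 125 and 26, and Gm24187 had 66 and 10. The counts of Gm23935, Gm24270 and Gm24187 were much higher in KO2, whereas those of Gm26384, Snord43 and Gm26298 differed far less. No interval is given for these loci. The lengths of the 1033 genes had a median of 104 bases, against 81 for the Mir and Mirlet loci.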
